A study of Homo sapiens with 6 samples.

Results

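The genes described here are 41 genes of the integrated stress response: 3 of the kinases that phosphorylate the translation factor eIF2α, the mitochondrial relay DELE1, the transcription factor ATF4 with its partner factors, and ATF4 target genes for feedback, amino acid supply, serine and folate metabolism and tRNA charging. They were taken by gene symbol from a list of the pathway, with no threshold on a measured value, and all 41 had a row among the 42656 rows of the deposited count table. The series measured mRNA in TOV21G, an established human line from an ovarian clear cell carcinoma, and its title ties the RNA-binding protein MEX3A to mitochondrial fitness. The 3 libraries called shMEX3A come from cells given a lentiviral short hairpin against MEX3A (TRCN230492, genotype labelled MEX3A knockdown). The 3 libraries called shCtrl come from cells given a scrambled hairpin (TRC2-Scramble_ASN0003, genotype labelled WT). Lentivirus was used at an MOI (multiplicity of infection) of 50 in both arms, which were harvested on day 3, grown with 15% serum and kept within 25 passages, and each arm had 1 hairpin, so the knockdown and any other effect of that hairpin cannot be told apart. The comparison asks how these RNAs differ when MEX3A is depleted.

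The integrated stress response slows general translation when one of its kinases phosphorylates eIF2α: EIF2AK1 (HRI) for haem shortage and for mitochondrial stress relayed by DELE1, EIF2AK3 (PERK) for unfolded protein in the endoplasmic reticulum, EIF2AK4 (GCN2) for uncharged tRNA, and EIF2AK2 (PKR) for double-stranded RNA. The mRNAs of ATF4, ATF5, DDIT3 and PPP1R15A carry upstream reading frames through which they are translated better under that phosphorylation, so much of their control lies in translation, which RNA counts do not measure. ATF4 then binds C/EBP-ATF response elements with C/EBP partners and switches on amino acid transporters, amino acid and folate enzymes and tRNA synthetases.

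MEX3A had 19.6, 21.0 and 22.2 CPM (each library's counts over its TMM-adjusted total) in the shMEX3A libraries, against 68.8, 70.7 and 67.6 CPM in the shCtrl libraries. It was therefore 3.31-fold lower in shMEX3A, with a log2 fold change of -1.72 (SE 0.046) and an adjusted p of 1.52e-28 in edgeR's quasi-likelihood test, and the groups did not overlap. Library totals ran from 34662635 to 48228216 counts, and the first shCtrl library stood farthest from the others on the second principal component, which held 8.52% of the variance. All 7 clear cell carcinoma markers were tested, and their summed level was 938 to 975 CPM in shMEX3A and 1235.5 to 1272 CPM in shCtrl. The lower sum goes with ANXA4, at 214 ± 5.65 CPM in shMEX3A and 652 ± 19.0 CPM in shCtrl (log2 fold change -1.61), whereas 4 of the 7 were higher in shMEX3A (PAX8 0.61, KRT18 0.71, KRT7 0.91 and NAPSA 0.80 on the log2 scale), 2 were lower and the median log2 fold change of the list was 0.61. NAPSA stayed under 1 CPM in every library. Of 7 fibroblast markers 2 passed the low-count filter, and the list summed to 9.02 to 11.3 CPM in shMEX3A and 5.59 to 5.92 CPM in shCtrl. That sum was mostly DCN, at 9.07 CPM in shMEX3A and 4.86 CPM in shCtrl (log2 fold change 0.90). THY1, which also passed the filter, was not called. Of 6 leukocyte markers 1 passed, with sums of 8.59 to 8.92 CPM in shMEX3A and 7.07 to 8.21 CPM in shCtrl that were almost all CD68, and CD3E was at 0. Of 5 endothelial markers 2 passed, with sums of 0.679 to 0.993 CPM in shMEX3A and 0.595 to 0.723 CPM in shCtrl, and KDR was at 0. Of the 2 that passed, CDH5 was called higher, at 0.432 CPM in shMEX3A and 0.0424 CPM in shCtrl (log2 fold change 3.29). PECAM1 had a log2 fold change of -0.79 and was not called. Both stayed under 1 CPM in every library. Mitochondrially encoded genes took 3.84% to 4.14% of the counts in shMEX3A and 2.14% to 2.28% in shCtrl. The part of these markers in the results was not tested.

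Across the 41 genes the kinases, the transcription factors and several target groups split in direction rather than moving together. PERK, ATF5 and the leucine transporter SLC7A5 were close to 2-fold higher in shMEX3A, while GCN2, DDIT3, NUPR1, CHAC1, PSAT1 and ATF4 itself were lower. The rise of SLC7A5 was smaller, at 0.67 on the log2 scale, with a correction for GC content and length. All 41 genes were tested; 10 rose (24.4%, beside 34.0% of all 15679 tested genes), 23 fell (56.1%, beside 35.6%) and 8 did not pass an adjusted p of 0.05. With mitochondrially encoded genes removed before the fit, the counts were likewise 10 and 23, and without the first shCtrl library they were 11 and 22. A change of at least 1.5-fold was called upward for 3 of the 41 genes, beside 14.8% of all tested genes, and downward for 6 of the 41, beside 13.2%. Falls of this size were thus about as common as over all tested genes, and rises of this size less common. The median log2 fold change was -0.10 over the 41 genes and -0.01 over all tested genes, whose middle range from the 25th to the 75th percentile was -0.35 to 0.36. The 2 arms did not overlap for 34 of the 41 genes, beside 72.3% of all tested genes, so with so many genes called in this comparison (69.7%) a call by itself is common. Nothing in the labels tells separate cultures from repeat preparations, so p-values rest on the spread among these 6 samples, part or all of which may be technical.

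**Figure D1:**
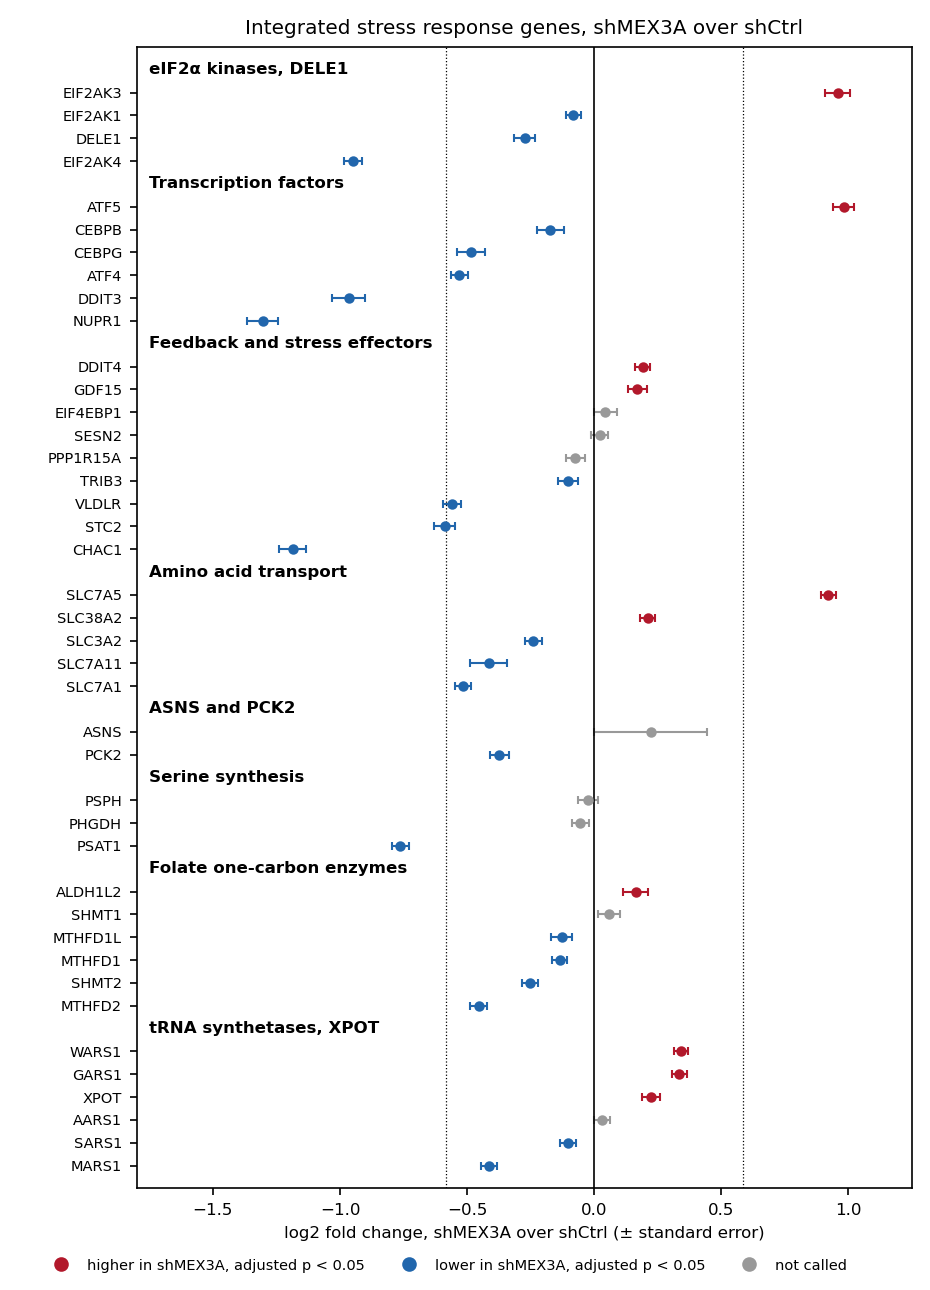
Log2 fold change of each of the 41 genes (x axis, shMEX3A over shCtrl, points with standard errors from the edgeR quasi-likelihood fit on 3 libraries per arm), grouped by role; dotted lines mark 1.5-fold. Most groups hold genes on both sides of 0, with NUPR1 lowest at -1.30 and ATF5 highest at 0.98.

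Letters of the C/EBP-ATF response element were looked for near the transcription starts, because this element is shared by many ATF4 targets. The search shows which of these genes hold the searched letters near a start, not which lack the element. The motif searched was TGATGNAA on both strands, in RefSeq windows of 300 bases (GRCh38.p14) from 250 bases before to 50 bases after each start. Of the 41 genes, 34 had a window and 9 of those (26.5%) held the motif, beside 3.62% of all 35116 windows and 2.72% of the 12001 tested genes with a window. The windows of CHAC1 (chr15:40953251-40953280, plus strand), SLC7A1 (chr13:29595663-29595692, minus strand), CEBPG (chr19:33374045-33374104, plus strand), MARS1 (chr12:57488053-57488082, plus strand), ASNS (chr7:97872458-97872487, minus strand) and GARS1 (chr7:30594834-30594863, plus strand) are shown on the strand of the gene, 5′ to 3′, with the matching letters in capitals. They are chosen to show the same element in genes that fell, in 1 that rose and in 1 that was not called.
CHAC1: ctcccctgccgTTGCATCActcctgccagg
SLC7A1: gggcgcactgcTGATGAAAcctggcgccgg
CEBPG: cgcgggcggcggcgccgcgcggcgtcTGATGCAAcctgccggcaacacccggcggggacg
MARS1: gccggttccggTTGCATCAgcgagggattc
ASNS: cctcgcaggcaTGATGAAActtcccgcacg
GARS1: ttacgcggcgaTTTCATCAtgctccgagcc
In CHAC1, MARS1 and GARS1 the element reads on the opposite strand, so its reverse complement is printed.

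The matches lay at -209 to -202 in CHAC1, 8 to 15 in SLC7A1, -42 to -35 in CEBPG, -4 to 4 in MARS1, -68 to -61 in ASNS and -33 to -26 in GARS1, counted from the RefSeq start as base 1 with the base before it as -1. SLC3A2, MTHFD1L and AARS1 held the motif as well. Of the 9 genes with a match 1 rose, 6 fell and 2 were not called (median log2 fold change -0.24). Of the 25 genes with a window and no match 8 rose, 13 fell and 4 were not called, with a median of -0.10. Over the 327 tested genes of the whole table with a match, 30.6% rose and 42.5% fell, with a median of -0.09. Genes with and without a match in their windows therefore stood on both sides of 0. A match describes letters only and no binding was measured. Elements outside the windows or with other letters were not looked for.

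Among the kinases, PERK rose and GCN2 fell by nearly the same factor, while HRI moved little. EIF2AK3 (PERK, chr2:88556741-88627576, minus strand, GRCh38) had 40.4, 40.5 and 39.2 CPM in shMEX3A, against 20.9, 21.2 and 19.7 CPM in shCtrl. All 3 shMEX3A libraries were above all 3 shCtrl libraries, and the level was 40.04 ± 0.695 CPM in shMEX3A and 20.6 ± 0.798 CPM in shCtrl (SD, n = 3 each), 1.94-fold higher in shMEX3A (log2 fold change 0.96, SE 0.050, adjusted p = 2.23e-19, edgeR). EIF2AK4 (GCN2, chr15:39934146-40035591, plus strand) had 75.7, 73.2 and 72.2 CPM in shMEX3A, against 137.4, 148.1 and 141.6 CPM in shCtrl. The groups were far apart in the other direction, at 73.7 ± 1.84 CPM in shMEX3A and 142 ± 5.37 CPM in shCtrl, 1.93-fold lower in shMEX3A (log2 fold change -0.95, SE 0.036, adjusted p = 7.69e-24). EIF2AK1 (HRI, chr7:6022244-6059230, minus strand) had 193.1, 193.2 and 193.1 CPM in shMEX3A, against 207.1, 205.7 and 200.7 CPM in shCtrl. The libraries did not overlap, but the difference was small (log2 fold change -0.08, SE 0.030, adjusted p = 0.0151), and its adjusted p was 0.0643 when only genes with a known GC content entered the fit. In raw counts of the same library, which do not depend on scaling, EIF2AK3 over EIF2AK4 was 0.533, 0.553 and 0.544 in shMEX3A, against 0.152, 0.143 and 0.139 in shCtrl.

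DELE1, the mitochondrial protein that carries stress signals to HRI, had 42.4, 42.3 and 45.8 CPM in shMEX3A, against 52.9, 52.6 and 52.0 CPM in shCtrl. It fell by 0.27 on the log2 scale (SE 0.042, adjusted p = 3.66e-07), with no overlap between the arms. To set genes beside each other, levels were divided by the length of the longest transcript, and which transcript was expressed was not examined. On this scale HRI had the highest level of these kinases, with 43.2 CPM per kb in shMEX3A and 45.8 in shCtrl. GCN2 followed with 13.4 CPM per kb in shMEX3A and 25.9 in shCtrl, and PERK with 8.62 in shMEX3A and 4.44 in shCtrl. Of the exon bases of EIF2AK3, 15.1% lie under antisense genes, and the strand setting of the counting is not given in the sources used here, so reads from either strand cannot be told apart there.

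**Figure D2:**
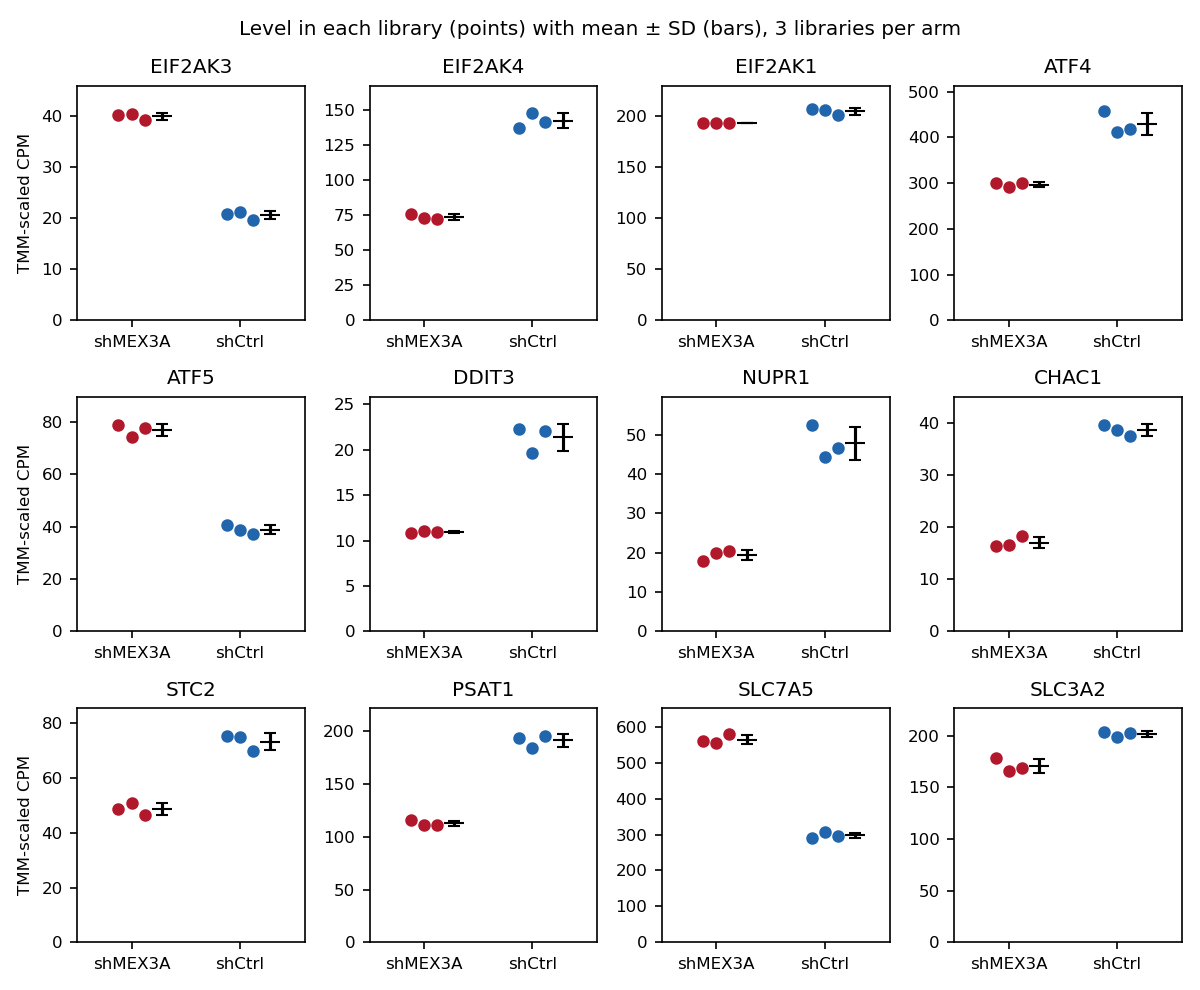
TMM-scaled CPM (y axes, from 0, each panel with its own scale) of 12 genes in each of the 3 shMEX3A libraries (red) and 3 shCtrl libraries (blue), with the mean ± SD beside the points. EIF2AK3, ATF5 and SLC7A5 are higher in every shMEX3A library, and the other 9 genes are lower in every shMEX3A library.

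Of the 6 transcription factors ATF5 rose and the other 5 fell. ATF4 (chr22:39519695-39522685, plus strand), the hub of the response, had 299.97, 291.9 and 299.3 CPM in shMEX3A, against 457.5, 412.2 and 417.6 CPM in shCtrl. Its mRNA was 297 ± 4.47 CPM in shMEX3A and 429 ± 24.8 CPM in shCtrl, lower by 1.44-fold (log2 fold change -0.53, SE 0.034, adjusted p = 3.03e-15), with no overlap, and the first shCtrl library was the highest. ATF5 (chr19:49928702-49933935, plus strand), a related factor tied to the mitochondrial unfolded protein response, had 78.9, 74.3 and 77.7 CPM in shMEX3A, against 40.6, 38.8 and 37.4 CPM in shCtrl. It was 1.98-fold higher in shMEX3A, at 77.0 ± 2.42 CPM and 38.9 ± 1.61 CPM in shCtrl (log2 fold change 0.98, SE 0.041, adjusted p = 1.52e-22). In raw counts ATF5 over ATF4 was 0.263, 0.254 and 0.260 in shMEX3A, against 0.0887, 0.0942 and 0.0895 in shCtrl. Of the exon bases of ATF5, 23.7% lie under other genes, mostly the antisense gene NUP62, which shares 626 bases and went the other way (64.4 CPM in shMEX3A, 108 CPM in shCtrl, log2 fold change -0.75).

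DDIT3 (CHOP, chr12:57516588-57521737, minus strand), which drives the death-prone late phase of the response, had 10.85, 11.02 and 10.98 CPM in shMEX3A, against 22.3, 19.6 and 22.1 CPM in shCtrl. Each shMEX3A library was near 11 CPM and each shCtrl library near or above 20, a log2 fold change of -0.97 (SE 0.066, adjusted p = 6.22e-16), 1.95-fold lower. NUPR1 (chr16:28532708-28539174, minus strand), a small stress-induced chromatin protein, had 18.0, 19.9 and 20.4 CPM in shMEX3A, against 52.5, 44.3 and 46.7 CPM in shCtrl. It had the largest change of the 41 genes, 2.47-fold lower in shMEX3A (log2 fold change -1.30, SE 0.061, adjusted p = 2.23e-15), again with the first shCtrl library highest. Of the exon bases of DDIT3, 39.6% lie under other genes; 355 of these are shared with MARS1 on the opposite strand, which also fell, and 58 with MBD6, which rose (log2 fold change 0.92).

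CEBPG, which pairs with ATF4 at its targets, had 19.5, 21.1 and 21.2 CPM in shMEX3A, against 27.9, 30.1 and 28.5 CPM in shCtrl, a fall of all 3 libraries below the shCtrl range (log2 fold change -0.48, SE 0.055, adjusted p = 5.67e-10). CEBPB, the other C/EBP partner, had 34.7, 34.2 and 38.2 CPM in shMEX3A, against 43.3, 39.2 and 37.8 CPM in shCtrl. Its arms overlapped, its log2 fold change was -0.17 (SE 0.052, adjusted p = 0.00407), and without the first shCtrl library it was -0.11 with an adjusted p of 0.0542.

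Among the 9 feedback and effector genes CHAC1, STC2, VLDLR and TRIB3 fell, DDIT4 and GDF15 rose, and SESN2, PPP1R15A and EIF4EBP1 were not called. CHAC1 (chr15:40952962-40956519, plus strand), which breaks down glutathione, had 16.3, 16.6 and 18.2 CPM in shMEX3A, against 39.7, 38.6 and 37.6 CPM in shCtrl. It was 2.28-fold lower, at 17.0 ± 1.05 CPM in shMEX3A and 38.6 ± 1.07 CPM in shCtrl, with a wide gap between the arms (log2 fold change -1.19, SE 0.054, adjusted p = 2.53e-21). STC2 (chr5:173314713-173329503, minus strand), a secreted stress glycoprotein, had 48.5, 50.9 and 46.5 CPM in shMEX3A, against 75.1, 74.8 and 69.8 CPM in shCtrl. Its fall was just over 1.5-fold (log2 fold change -0.59, SE 0.041, adjusted p = 1.32e-15). VLDLR, a lipoprotein receptor, was just under 1.5-fold, with 92.4, 90.8 and 85.4 CPM in shMEX3A against 133.7, 128.6 and 133.7 CPM in shCtrl (log2 fold change -0.56, SE 0.035, adjusted p = 7.01e-17), as was ATF4 (log2 fold change -0.53).

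The stress effectors with the most RNA went the other way, by small amounts. DDIT4 (REDD1), an inhibitor of mTORC1, had 1454, 1461 and 1461 CPM in shMEX3A, against 1286, 1286 and 1266 CPM in shCtrl, with a log2 fold change of 0.19 (SE 0.029, adjusted p = 2.64e-07). GDF15, a secreted cytokine used as a marker of mitochondrial stress, had 1315, 1358 and 1402 CPM in shMEX3A, against 1285, 1202 and 1135 CPM in shCtrl. Neither gene overlapped between the arms, but for GDF15 the gap between the lowest shMEX3A and the highest shCtrl library was narrow; its log2 fold change was 0.17 (SE 0.038, adjusted p = 0.000422) and 0.10 after correction by GC and length offsets. Per kilobase GDF15 had the highest level of the 41 genes, at 1132 CPM per kb in shMEX3A and 1006 in shCtrl, followed by DDIT4 at 835 in shMEX3A and 732 in shCtrl. Of the exon bases of DDIT4, 41.2% lie under an annotated antisense gene.

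TRIB3, a pseudokinase that holds back ATF4, had 57.0, 53.6 and 59.9 CPM in shMEX3A, against 60.4, 61.4 and 61.0 CPM in shCtrl. Its log2 fold change of -0.10 (SE 0.040, adjusted p = 0.0220) rested on little: DESeq2 gave an adjusted p of 0.0898, the fit without the second shMEX3A library gave -0.06 with 0.216, and that without the second shCtrl library gave 0.0672. With the GC and length offsets it was -0.23. SESN2, a leucine sensor that restrains mTORC1, was at 157 ± 1.44 CPM in shMEX3A and 155 ± 6.13 CPM in shCtrl, with overlapping arms and a log2 fold change of 0.02 (SE 0.033, adjusted p = 0.575). Its sign turned under the GC and length offsets, to -0.17 with an adjusted p of 1.69e-06. PPP1R15A (GADD34), which brings the phosphatase to eIF2α, was at 59.6 ± 1.30 CPM in shMEX3A and 62.7 ± 2.08 CPM in shCtrl, with a log2 fold change of -0.07 (SE 0.038, adjusted p = 0.0810). Under the same offsets it was -0.17 with an adjusted p of 4.35e-05, and without the third shCtrl library -0.10 with 0.0386. EIF4EBP1, which blocks cap-dependent initiation, was at 49.4 ± 1.45 CPM in shMEX3A and 47.8 ± 3.11 CPM in shCtrl, with a log2 fold change of 0.04 (SE 0.044, adjusted p = 0.383), and passed without the first shCtrl library (0.10, adjusted p = 0.0481).

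Of the 5 amino acid transport genes SLC7A5 and SLC38A2 rose, and SLC3A2, SLC7A11 and SLC7A1 fell. SLC7A5 (LAT1, chr16:87830023-87869488, minus strand), the light chain that imports leucine and other large neutral amino acids, had 560.1, 553.9 and 578.3 CPM in shMEX3A, against 291.7, 305.7 and 296.9 CPM in shCtrl. It was 1.89-fold higher in shMEX3A (log2 fold change 0.92, SE 0.030, adjusted p = 9.34e-26), with no overlap. SLC3A2 (CD98), the heavy chain that partners both LAT1 and SLC7A11, had 178.4, 165.4 and 168.6 CPM in shMEX3A, against 203.6, 198.6 and 202.4 CPM in shCtrl. It fell in all 3 libraries (log2 fold change -0.24, SE 0.032, adjusted p = 2.95e-08), so the LAT1 light and heavy chains went in opposite directions. The raw count of SLC7A5 was 3.14, 3.35 and 3.43 times that of SLC3A2 in shMEX3A, against 1.43, 1.54 and 1.47 times in shCtrl. Per kilobase of the longest transcript the light chain had 124 CPM per kb in shMEX3A and 65.7 in shCtrl. The heavy chain had 76.9 in shMEX3A and 90.7 in shCtrl. On this scale, which rests on the transcript length taken, the order of their levels was reversed between the arms. In raw counts SLC7A5 was above SLC3A2 in every library of both arms. SLC7A5P2, a near-identical copy with its own row, held 0.380% as many counts as SLC7A5.

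SLC7A11 (xCT), the cystine importer that also needs SLC3A2, had 16.2, 13.4 and 15.2 CPM in shMEX3A, against 20.3, 17.9 and 21.3 CPM in shCtrl, below every shCtrl library (log2 fold change -0.42, SE 0.072, adjusted p = 1.08e-05). SLC7A1, the arginine and lysine importer, had 116.7, 119.0 and 120.0 CPM in shMEX3A, against 165.3, 172.5 and 171.4 CPM in shCtrl (log2 fold change -0.52, SE 0.032, adjusted p = 4.48e-17). SLC38A2 (SNAT2), the sodium-coupled carrier of small neutral amino acids, had 557.8, 533.9 and 544.4 CPM in shMEX3A, against 458.1, 473.4 and 482.9 CPM in shCtrl. It rose without overlap (log2 fold change 0.21, SE 0.030, adjusted p = 9.31e-08), and the value was 0.33 with the GC and length offsets.

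ASNS (chr7:97852118-97872542, minus strand), the asparagine synthetase that is a textbook ATF4 target and whose promoter carries the element printed above, had few counts. Its raw counts were 64, 61 and 36 in shMEX3A, against 55, 43 and 36 in shCtrl, and its level of 0.553 CPM per kb in shMEX3A and 0.477 in shCtrl was the lowest of the 41 genes. The arms overlapped, the log2 fold change was 0.22 (SE 0.222, adjusted p = 0.379), and a change of this size was not detectable with so few counts. Of the exon bases of ASNS, 44.6% lie under AC079781.5 on the same strand in GENCODE 29. No row of the count table carried that name, and which annotation served in the counting is not given. Whether this overlap took reads from ASNS therefore cannot be told, and the low counts do not by themselves show low expression. PCK2, the mitochondrial enzyme that makes phosphoenolpyruvate, had 62.0, 64.5 and 64.9 CPM in shMEX3A, against 81.8, 81.8 and 84.2 CPM in shCtrl, and fell without overlap (log2 fold change -0.37, SE 0.037, adjusted p = 1.61e-11).

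In the 3-step pathway from 3-phosphoglycerate to serine only the middle enzyme was called. PSAT1 (chr9:78297143-78330093, plus strand), the aminotransferase, had 115.7, 110.8 and 111.1 CPM in shMEX3A, against 193.6, 183.9 and 195.5 CPM in shCtrl. It was 1.70-fold lower in shMEX3A, with no overlap (log2 fold change -0.76, SE 0.033, adjusted p = 6.95e-22), and -0.53 with the GC and length offsets. PHGDH, the first enzyme, was at 120 ± 2.14 CPM in shMEX3A and 124 ± 3.80 CPM in shCtrl (log2 fold change -0.05, SE 0.034, adjusted p = 0.146; with the offsets -0.16, adjusted p = 1.84e-05). PSPH, the last enzyme, was at 53.9 ± 1.65 CPM in shMEX3A and 54.8 ± 1.55 CPM in shCtrl, with overlapping arms (log2 fold change -0.03, SE 0.040, adjusted p = 0.586; 0.07 with the offsets). Set against these neighbours in raw counts, PSAT1 was 0.986, 0.912 and 0.922 times PHGDH in shMEX3A, against 1.585, 1.504 and 1.518 times in shCtrl. It was 2.09, 2.13 and 2.05 times PSPH in shMEX3A, against 3.45, 3.46 and 3.55 times in shCtrl.

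Of the 6 folate enzymes, 4 fell, 1 rose and 1 was not called. MTHFD2, the mitochondrial dehydrogenase of one-carbon metabolism, had 99.6, 100.2 and 100.8 CPM in shMEX3A, against 135.5, 135.4 and 140.8 CPM in shCtrl (log2 fold change -0.45, SE 0.033, adjusted p = 4.32e-15). SHMT2, which moves the one-carbon unit of serine onto folate in mitochondria, had 235.0, 229.3 and 233.3 CPM in shMEX3A, against 280.1, 278.4 and 272.4 CPM in shCtrl (log2 fold change -0.25, SE 0.030, adjusted p = 1.34e-09). SHMT1, its cytosolic counterpart, had 47.0, 52.2 and 50.9 CPM in shMEX3A, against 48.0, 46.7 and 49.4 CPM in shCtrl. The arms overlapped for SHMT1 (log2 fold change 0.06, SE 0.043, adjusted p = 0.234), which passed with the GC and length offsets (0.10, adjusted p = 0.0245) and without the first shMEX3A library (0.10, adjusted p = 0.0474). The raw count of SHMT2 was 5.00, 4.39 and 4.59 times that of SHMT1 in shMEX3A, against 5.84, 5.96 and 5.51 times in shCtrl.

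The remaining folate enzymes changed by less. MTHFD1, the cytosolic trifunctional enzyme, was at 249 ± 3.89 CPM in shMEX3A and 274 ± 2.63 CPM in shCtrl (log2 fold change -0.14, adjusted p = 9.83e-05), and its mitochondrial relative MTHFD1L at 48.2 ± 1.30 CPM in shMEX3A and 52.6 ± 1.61 CPM in shCtrl (log2 fold change -0.13, adjusted p = 0.00584). ALDH1L2, which oxidises formyl-folate in mitochondria, rose to 34.8 ± 1.47 CPM in shMEX3A, against 31.1 ± 0.472 CPM in shCtrl (log2 fold change 0.16, SE 0.048, adjusted p = 0.00304). Of the 4 mitochondrial enzymes of this group, SHMT2, MTHFD2 and MTHFD1L thus fell and ALDH1L2 rose. Of the exon bases of MTHFD2, 33.2% lie under other genes, chiefly SLC4A5, which had only 0.732 CPM in shMEX3A and 0.504 CPM in shCtrl.

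Among the 5 cytosolic tRNA synthetases and the tRNA exporter XPOT, 3 genes rose, 2 fell and AARS1 was not called. WARS1, for tryptophan, had 1171, 1169.5 and 1158 CPM in shMEX3A, against 914.3, 924.6 and 922.5 CPM in shCtrl (log2 fold change 0.34, SE 0.028, adjusted p = 2.04e-13). GARS1, for glycine, had 341.4, 342.1 and 333.8 CPM in shMEX3A, against 270.0, 265.7 and 271.0 CPM in shCtrl (log2 fold change 0.33, SE 0.029, adjusted p = 7.6e-13). Both rose with no overlap, as did XPOT, at 87.4 ± 1.69 CPM in shMEX3A and 74.9 ± 1.39 CPM in shCtrl (log2 fold change 0.22, SE 0.036, adjusted p = 9.24e-07). MARS1, for methionine, had 182.8, 182.7 and 178.9 CPM in shMEX3A, against 234.3, 246.5 and 245.2 CPM in shCtrl, and fell (log2 fold change -0.41, SE 0.031, adjusted p = 8.59e-15). SARS1, for serine, was at 235 ± 8.01 CPM in shMEX3A and 252 ± 6.31 CPM in shCtrl (log2 fold change -0.10, SE 0.032, adjusted p = 0.00354), and its call was lost under the GC and length offsets (-0.02, adjusted p = 0.506). AARS1, for alanine, was at 237 ± 4.64 CPM in shMEX3A and 232 ± 2.94 CPM in shCtrl (log2 fold change 0.03, SE 0.030, adjusted p = 0.364; -0.05 with the offsets).

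**Figure D3:**
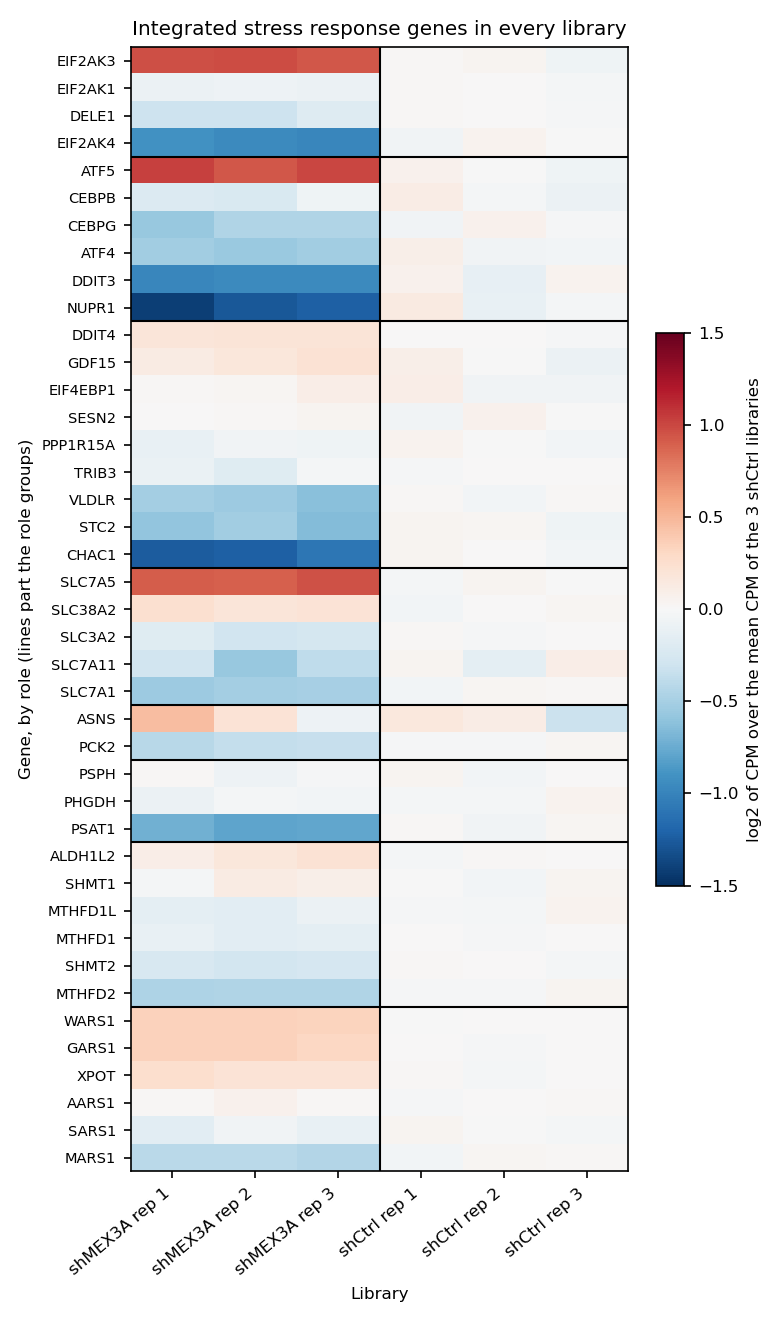
Log2 of the CPM of each of the 41 genes (rows, by role) in each library (columns) over the mean CPM of the 3 shCtrl libraries (blue below 0, red above). The 3 shMEX3A libraries show the same colour for most genes; ASNS, with 36 to 64 raw counts, varies most within each arm.

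The libraries of an arm differed little from each other for these genes. The median coefficient of variation over the 41 genes was 2.48% in shMEX3A and 2.77% in shCtrl, beside 3.06% in shMEX3A and 3.32% in shCtrl over all genes with at least 10 CPM. It was smallest for EIF2AK1 in shMEX3A (0.0362%) and for WARS1 in shCtrl (0.588%). The first shCtrl library was the highest of its arm for 20 of the 41 genes (48.8%), beside 35.3% of all tested genes. In sum the 41 genes took 0.860% to 0.869% of all counts in shMEX3A and 0.864% to 0.870% in shCtrl, so their total did not separate the arms. DDIT4, GDF15 and WARS1 alone made up 0.388% to 0.393% of the counts in shMEX3A and 0.341% to 0.352% in shCtrl. The values are RNA shares of bulk cultures, in which fewer cells with an RNA and less of it per cell cannot be told apart.

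Genes around this response were read from lists of the same pathway. In the list of eIF2 and its control, 5 of 20 tested genes rose and 11 fell (median log2 fold change -0.14). EIF2S2, which encodes eIF2β, had 36.0, 36.9 and 34.5 CPM in shMEX3A, against 141.0, 122.1 and 131.1 CPM in shCtrl, 3.67-fold lower with no overlap (log2 fold change -1.88, SE 0.046, adjusted p = 3.26e-22). No processed copy named after EIF2S2 had its own row in the count table. Whether copies without a row took some of its reads was not tested. The other subunits were named after their values were seen: EIF2S1 (eIF2α) was at 74.8 ± 1.76 CPM in shMEX3A and 80.8 ± 3.09 CPM in shCtrl (log2 fold change -0.11, adjusted p = 0.00726), and EIF2S3 (eIF2γ) at 488 ± 1.66 CPM in shMEX3A and 488 ± 18.4 CPM in shCtrl (log2 fold change -0.00, adjusted p = 0.991). EIF2B2, a subunit of the exchange factor that phosphorylated eIF2 inhibits, fell by 0.52 on the log2 scale (adjusted p = 2.24e-13). GCN1, the ribosome-bound activator of GCN2, rose to 330 ± 2.68 CPM in shMEX3A, against 223 ± 12.1 CPM in shCtrl (log2 fold change 0.57, adjusted p = 2e-17; 0.36 with the GC and length offsets), while GCN2 itself fell. PKR (EIF2AK2) rose by 0.31 on the log2 scale (adjusted p = 3.15e-10).

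In a list of 18 genes for other cytosolic tRNA synthetases and partner proteins of their complex, 5 rose and 8 fell, with a median of -0.05. The partner proteins are AIMP1, AIMP2 and EEF1E1, which are not synthetases. The falls include AIMP1 (log2 fold change -0.32) and EEF1E1 (-0.54), and AIMP2 was not called. YARS1 (log2 fold change 0.49) and VARS1 (0.41) led the rises, and KARS1 (-0.20) fell. With the GC and length offsets VARS1 was 0.16, and KARS1 was no longer called (-0.06, adjusted p = 0.0509). Of 19 tested genes among 21 other amino acid transporters 8 rose and 8 fell, with a median of 0.17. SLC43A2 (LAT4), which carries large neutral amino acids without a heavy chain, rose to 87.1 ± 3.70 CPM in shMEX3A, against 27.0 ± 1.40 CPM in shCtrl (log2 fold change 1.69, adjusted p = 9.58e-29), and SLC38A7, a lysosomal glutamine carrier, rose by 0.85. SLC3A1, the second known heavy chain, fell to 1.68 ± 0.226 CPM in shMEX3A, against 9.20 ± 0.255 CPM in shCtrl (log2 fold change -2.45, adjusted p = 6.04e-21), and SLC38A5, a glutamine carrier, had a log2 fold change of -0.76.

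Of 28 tested genes among 30 other serine, glycine, folate, proline and transsulfuration enzymes 9 rose and 13 fell, with a median of -0.05. ALDH18A1, which starts proline synthesis, and SLC25A32, the mitochondrial folate carrier, rose (log2 fold changes 0.72 and 0.89). GLDC, the glycine decarboxylase of mitochondria, fell to 44.5 ± 1.91 CPM in shMEX3A, against 90.1 ± 2.41 CPM in shCtrl (log2 fold change -1.02, adjusted p = 1.51e-23). Of 24 tested genes among 25 other ATF4 targets 10 rose and 12 fell, with a median of -0.17. BBC3 (PUMA), a pro-apoptotic BCL2 relative that p53 also controls, rose to 72.8 ± 2.49 CPM in shMEX3A, against 31.3 ± 1.13 CPM in shCtrl (log2 fold change 1.21, adjusted p = 5.67e-25), and JDP2, a basic leucine zipper factor, rose by 0.70. ADM2, a secreted peptide, fell to 19.2 ± 0.524 CPM in shMEX3A, against 38.2 ± 1.11 CPM in shCtrl (log2 fold change -0.99, adjusted p = 1.51e-19), and SQSTM1, the autophagy receptor p62, had a log2 fold change of -0.49.

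The unfolded protein response outside the ATF4 branch was mixed as well, with 8 of 21 tested genes higher, 10 lower and a median of -0.03. HSPA5 (BiP), the main chaperone of the endoplasmic reticulum, rose to 1331 ± 30.4 CPM in shMEX3A, against 942 ± 13.9 CPM in shCtrl (log2 fold change 0.50, adjusted p = 8.91e-18), and EDEM1, of the degradation pathway, rose by 0.64. DNAJB11, a co-chaperone of BiP, and CANX, the lectin chaperone calnexin, fell (log2 fold changes -0.67 and -0.39). The same background shares apply to these lists, 34.0% of all tested genes higher and 35.6% lower. NARS1, SLC1A4, CTH and PYCR1 stand in more than 1 of the lists.

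**Figure D4:**
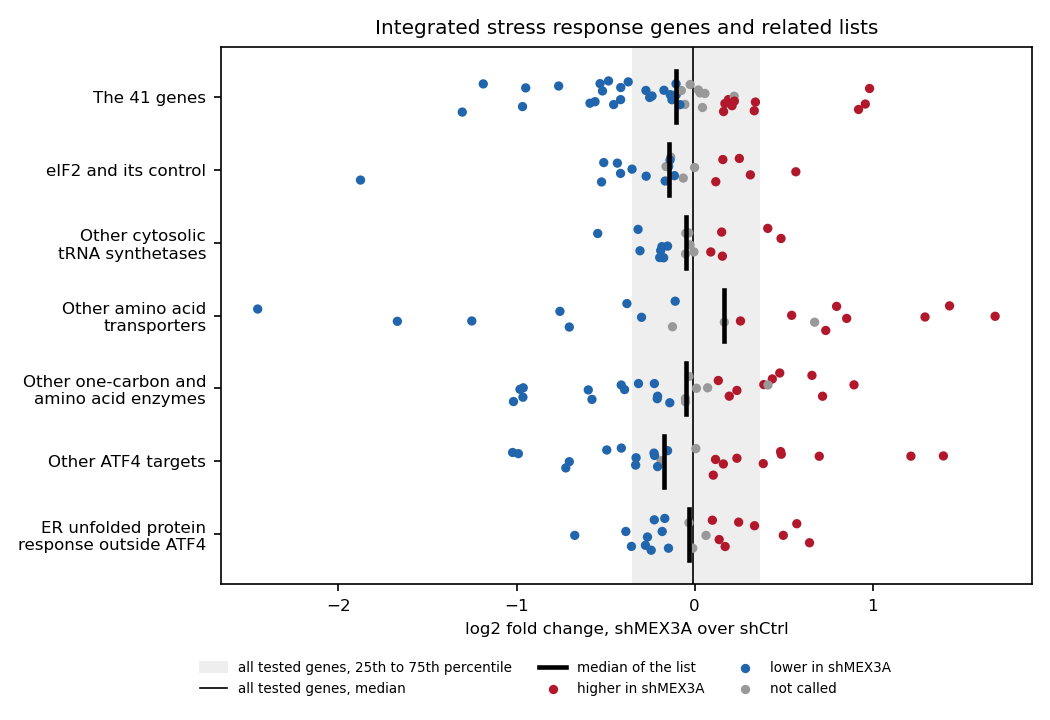
Log2 fold change (x axis, shMEX3A over shCtrl) of the tested genes of the 41-gene list and of 6 lists of related genes (rows; points coloured by call, thick bars at the list medians), over the 25th to 75th percentile of all tested genes (grey band, -0.35 to 0.36). Each list holds genes called in both directions, and the list medians run from -0.17 to 0.17.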

How the data were processed

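The authors deposited 1 table of raw read counts per gene, whole numbers with a column for each of the 6 libraries per the file header. The submitters' processing notes name GRCh38 and, with no role or order, edgeR 4.0.16, HTSeq 2.0.4, STAR and fastp 0.20.0; which annotation, strand setting and STAR version served is not given in the sources used here. From these counts, 15679 genes passed filterByExpr and were scaled by TMM and tested in R 4.3.3 with edgeR 4.0.16 (robust quasi-likelihood fit, 4 residual degrees of freedom, common biological coefficient of variation 3.41%). Benjamini-Hochberg adjustment ran over all genes tested (threshold 0.05), and standard errors were taken from the F statistic. Libraries of an arm differed by more than sampling noise (chi-square per degree of freedom 2.69 to 6.15, between arms 138 to 184), so none was a duplicate. Gene models came from GENCODE 29 and promoters from RefSeq GRCh38.p14. Alternatives were DESeq2 (1.42.0) and its size factors, upper-quartile factors, other low-count filters, limma voom (3.58.1), the replicate block, GC and length offsets (splines with 5 degrees of freedom), mitochondrially encoded genes removed, and each library left out. Every gene of the 41 is described; library values are given in full for ATF4, the kinases and genes changed at least 1.5-fold, and other lists name up to 2 genes per direction with the smallest p. Some results under this rule are not reported here. The genes and lists were chosen with earlier results of these data known. The scripts were tested on simulated data.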

Additional observations from a re-analysis of the deposited data

How the results depend on the processing

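Over 16 other settings, 637 of 656 values of the 41 genes kept their direction and side of the threshold, as did 382 of 384 values of genes named from the other lists; 30 of the 41 genes did so in every setting. With the GC and length offsets 4 uncalled genes changed sign: SESN2 to -0.17, which was called, PSPH to 0.0705, AARS1 to -0.0455 and EIF4EBP1 to -0.0229. Leaving out single libraries gave -0.0069 to 0.0508 for SESN2 and -0.0465 to 0.0008 for PSPH. The counts of rises and falls stayed within 1.5 times under every setting. The median log2 fold change of the 41 genes (-0.10) was -0.17 with the offsets and -0.13 to -0.11 when single libraries were left out, lowest without the third shMEX3A library; the cause was not tested. Same-numbered libraries did not deviate together (correlations -0.03, 0.08 and -0.08). With the replicate block, 10 of the 41 genes rose and 23 fell, and 10751 genes were called in all, against 10925 without it. Depth limits what can be said of ASNS, which had under 100 counts in every library and shares 44.6% of its exon bases with a same-strand gene.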
